A study of Mus musculus with 24 samples.

Results

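Mouse lungs dosed with tCNT, a tangled carbon nanotube, were compared with lungs dosed with vehicle alone (Ctrl). The members were the 3 samples whose titles end in tCNT and the 3 whose titles end in Ctrl, out of 24 samples in the series, and every gene measured on the arrays was described. All mice were female C57BL/6, 7 to 8 weeks old, with no allele or other treatment named in the labels. The tCNT mice received 10 µg a day in 50 µl of phosphate-buffered saline (PBS) on 4 days by oropharyngeal aspiration, in which an animal inhales a droplet put on its throat. The Ctrl mice received 50 µl of PBS by the same route, and lungs of both groups were collected 24 h past the final dose. Each sample pooled lung RNA of 2 mice. Beside tCNT, the series holds 5 other carbon materials at the same dose, of which rCNT (3 samples) and BayTubes (4 samples) are nanotubes too and were set beside tCNT here. The whole lung was measured, so fewer cells of a type and less RNA per cell cannot be told apart. The series was set up to compare carbon nanomaterials in the lung. The question here was which lung genes differed after tCNT, from vehicle and from other materials.

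The airways that receive an aspirated particle are lined by club, goblet and multiciliated cells. Goblet cells release mucins, and multiciliated cells carry the mucus upward by beating cilia that they build on many newly made centrioles. Alveolar macrophages take up particles that pass further down, break material down in lysosomes, and can call monocytes and neutrophils from blood with chemokines. Interleukin-4 and interleukin-13, the cytokines of type 2 (allergy-like) inflammation, drive airway cells toward the goblet state and induce resistin-like and chitinase-like proteins in mice.

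Values are log2 signals as deposited, on which a difference of 1 is a doubling, and the level of one gene cannot be set against that of another. There is no read depth behind an array signal, and precision is limited by how many samples there are. In each sample 40% of all spots lay below 5.69 to 5.75. The labelled tissue showed its markers. Sftpc, the surfactant protein of alveolar type 2 cells, stood at 17.97 in tCNT 7, tCNT 8 and tCNT 9, and at 17.97, 17.56 and 17.33 in Ctrl 1, Ctrl 2 and Ctrl 3, where 17.97 is the highest value that any sample holds. Each array carried 2 samples, one per dye. tCNT 7 and tCNT 9 were labelled with cy5 and tCNT 8 with cy3. Ctrl 2 was labelled with cy5 and Ctrl 1 and Ctrl 3 with cy3. No tCNT sample shared an array with a Ctrl sample. The arrays lay on 3 slides. tCNT 7, tCNT 8 and Ctrl 2 were on slide 1, Ctrl 1 and Ctrl 3 on slide 2, and tCNT 9 on slide 3. Slide 2 thus held no tCNT sample and slide 3 no Ctrl sample. Samples on one array resembled each other beyond their groups (median correlation of residuals 0.645 over 12 arrays, -0.0716 over the 264 other pairs), so array was a random block and dye a term of the fit. Nothing in the labels says how the pools relate to cages, so the p-values measure the spread between these pools.

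At an adjusted p under 0.05 (limma, 2-sided, Benjamini-Hochberg over 16519 genes), 117 genes changed after tCNT, 0.708% of those tested. Of these, 113 rose (0.684%) and 4 fell (0.0242%). The median change over all genes was 0.001 on the log2 scale, and the median standard error (SE) 0.159. Among the 113, 55 rose more than 2-fold, and in all 117 the 3 tCNT samples lay apart from the 3 Ctrl samples. That separation alone was common: 8.94% of all genes had every tCNT sample above every Ctrl sample, and 7.45% had every one below. The counts of called and of separated list members given further on are to be read beside these shares. With 0.708% of all genes called, 0 called genes in a list are no evidence that its genes stayed unchanged. The lists were chosen with earlier results of these data known, so such counts describe the lists and do not test them. The count depended on single samples. Without tCNT 8 it was 0 (limma, with 697 at an unadjusted p under 0.05), without tCNT 9 it was 14 and without tCNT 7 it was 327, and without Ctrl 1, Ctrl 2 or Ctrl 3 it was 24, 13 or 32. All 117 genes kept their direction in each of these fits. Since all 117 were separated between the groups, this was nearly given in advance and is no measure of how firm the calls are. tCNT 8 was the highest of the tCNT samples in 85 of the 113 raised genes (75.2%), against 32.6% of all genes tested, and it was also the one tCNT sample labelled with cy3. With array as a fixed term of the limma fit the count was 0, with 1048 at an unadjusted p under 0.05, and with the tCNT and Ctrl samples alone it was 51. The bars of genes called by setting show this spread.

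**Figure D1:**
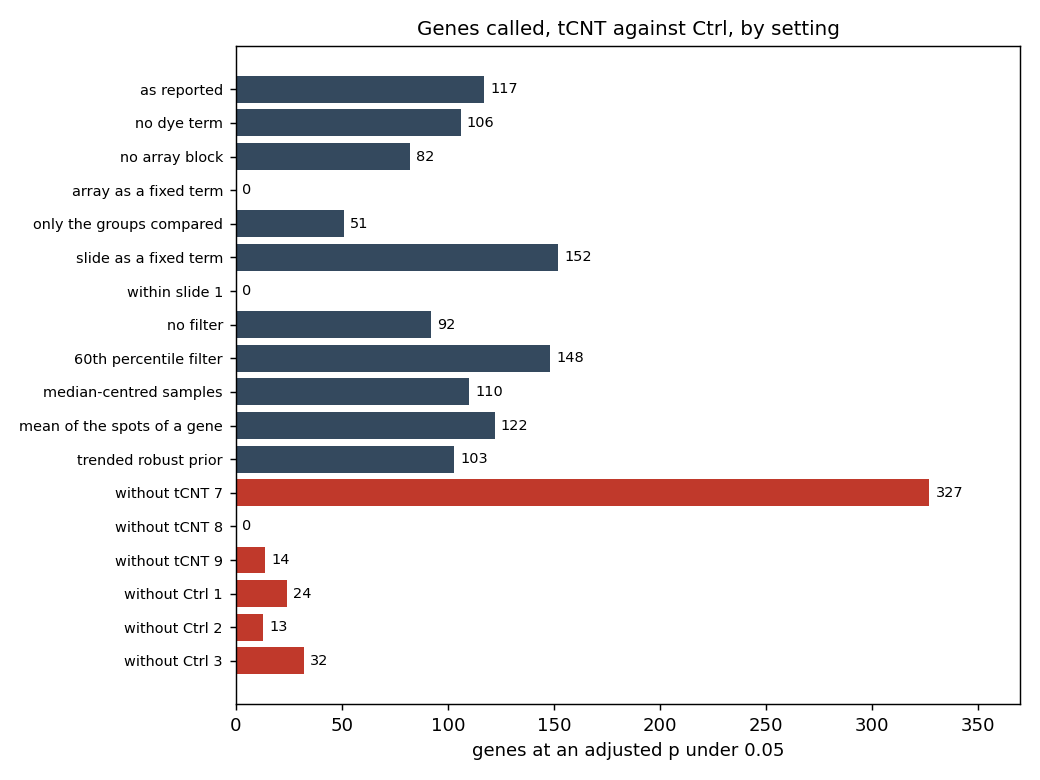
Number of genes at an adjusted p under 0.05 in tCNT against Ctrl (horizontal axis) for the fit as reported and for each other setting (rows); red bars leave out 1 sample. The count is 117 as reported, 327 without tCNT 7 and 0 without tCNT 8, with array as a fixed term or within slide 1.

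Genes of mucus-making airway cells held the largest change of all. Of 15 measured goblet and mucus genes, 5 rose and none fell. In 12 every tCNT sample lay above every Ctrl sample, where 8.94% of all genes did so. The median change of the list was 1.40. Clca1, a secreted protein of goblet cells, had log2 signals of 14.21, 12.31 and 12.53 in tCNT 7, 8 and 9, against 7.33, 7.14 and 7.61 in Ctrl 1, 2 and 3. The groups were far apart, with tCNT 7 above the other tCNT samples by more than the whole spread of Ctrl. The change was 5.83 ± 1.09 (SE, n = 3 against 3, adjusted p = 0.0189), the largest of all genes called. Agr2, an endoplasmic reticulum protein needed to make mucins, had 9.72, 9.71 and 9.37 in tCNT and 7.13, 6.90 and 7.58 in Ctrl. Its change was 2.48 ± 0.35 (adjusted p = 0.00243). Slc26a4, the anion exchanger pendrin, had 10.60, 10.38 and 9.89 in tCNT, against 7.49, 8.08 and 7.99 in Ctrl (adjusted p = 0.015). Both genes were even within each group and did not overlap between groups. The trefoil peptide Tff2 had 11.17, 10.39 and 10.53 in tCNT and 8.94, 8.31 and 8.44 in Ctrl (adjusted p = 0.0192). Muc5b, the mucin that club and goblet cells secrete at rest, had 13.42, 13.32 and 13.31 in tCNT, against 11.80, 11.16 and 11.27 in Ctrl (adjusted p = 0.0203).

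Other goblet genes did not pass. Muc5ac, the mucin that typifies the induced goblet cell, had 8.74, 7.82 and 7.99 in tCNT and 6.59, 6.65 and 6.51 in Ctrl, a difference of 1.46 ± 0.41 (adjusted p = 0.125). All tCNT samples were above all Ctrl samples, with tCNT 7 again highest. Spdef, a transcription factor of goblet cell differentiation, differed by 0.44 (adjusted p = 0.238) and Fcgbp, a mucus protein, by 1.10 (adjusted p = 0.362). Itln1, an intestinal and airway lectin, had 7.45, 7.43 and 7.03 in tCNT, and Ctrl values of 5.69, 5.42 and 5.80 that lay about the 40th percentile of the arrays, and it differed by 1.40 (adjusted p = 0.381). Pigr, the receptor that carries immunoglobulin A across the epithelium, was at -0.04. Called genes from no list, picked after their values were seen, included the membrane mucin Muc4 (1.06 ± 0.17, adjusted p = 0.00606), the disulfide isomerase Agr3, a relative of Agr2 (0.78), the water channel Aqp3 (0.90), the mucosal chemokine Cxcl17 (0.87 ± 0.12, adjusted p = 0.00232) and the tight junction protein Tjp3 (0.48).

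Club cell genes moved unevenly. Of 12 measured, 1 rose, and the list median was 0.06. Ltf, the iron-binding antimicrobial protein lactoferrin, had 11.51, 12.01 and 11.82 in tCNT, against 9.48, 7.45 and 9.73 in Ctrl, with Ctrl 2 far below the other Ctrl samples. Its change was 2.62 ± 0.57 (adjusted p = 0.0372), and without Ctrl 2 it was 2.03 (adjusted p = 0.265). Reg3g, an antibacterial lectin, had 12.87, 11.88 and 13.18 in tCNT and 10.67, 9.34 and 9.84 in Ctrl, and its difference of 2.85 ± 1.04 did not pass (adjusted p = 0.332). The defining club cell product Scgb1a1 had 17.49, 17.09 and 17.47 in tCNT and 17.44, 17.49 and 17.45 in Ctrl, close to the highest value an array holds (17.97), where a rise may not be detectable. The secretoglobin Scgb3a1 differed by 1.41 (adjusted p = 0.229), and Cyp2f2, a xenobiotic enzyme of club cells, by -0.25.

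**Figure D2:**
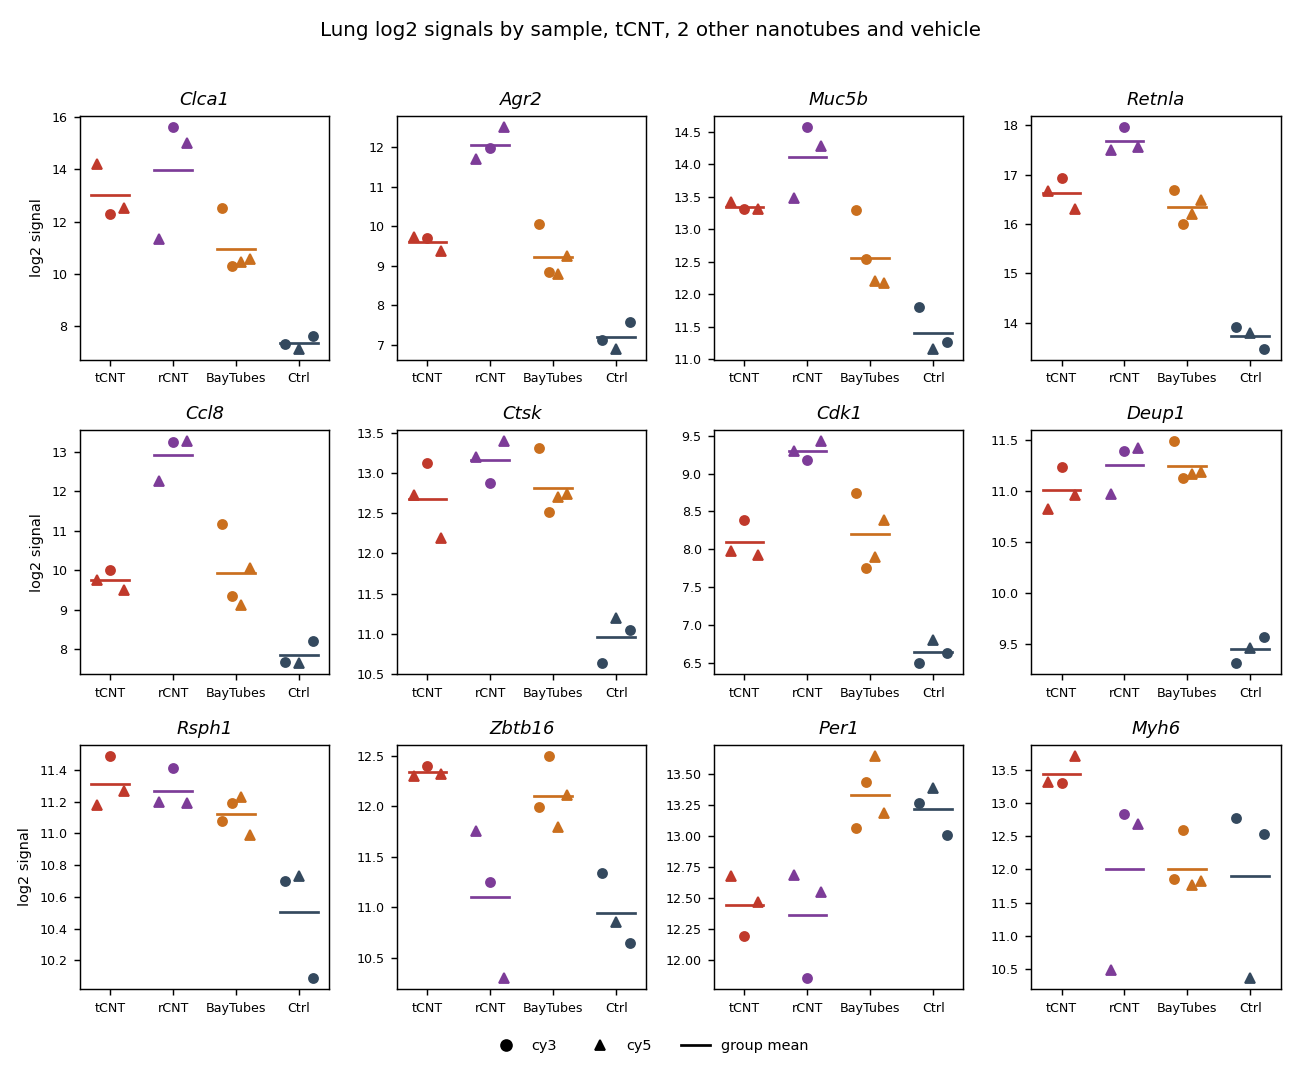
Log2 signal (vertical axes) of 12 genes in each tCNT, rCNT, BayTubes and Ctrl sample; circles are cy3, triangles cy5, and bars are group means. Clca1, Agr2, Muc5b, Retnla, Ccl8, Ctsk, Cdk1, Deup1, Rsph1 and Zbtb16 are above Ctrl in every tCNT sample, Per1 is below, and Myh6 has one low Ctrl sample at 10.37.

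None of the type 2 signalling genes upstream of the goblet state was called. Of 15 measured type 2 cytokines, chemokines and receptors 0 passed, where 0.708% of all genes did, and the median change was 0.10. Of the 15, 5 were separated upward and 0 downward, where 8.94% and 7.45% of all genes were. Il13 had 5.33, 5.07 and 5.44 in tCNT and 5.23, 5.17 and 5.18 in Ctrl, and Il4, Il5 and Il25 differed by 0.02, 0.18 and 0.01. In the tCNT and Ctrl samples Il13 and Il5 lay below the 40th percentile of their array, as did Il25 outside Ctrl 2, so a small change at these levels was not detectable. Il33, the alarmin released by damaged epithelium, had 11.82, 12.14 and 11.98 in tCNT, against 11.31, 11.28 and 11.19 in Ctrl, a separated but uncalled difference of 0.78 (adjusted p = 0.111). The chemokine Ccl17, which attracts T helper 2 cells, had 11.48, 9.87 and 10.59 in tCNT and 9.68, 9.60 and 9.41 in Ctrl (1.07, adjusted p = 0.119), and tCNT 7 was highest. Ccl24, a chemokine for eosinophils, overlapped between groups, with 7.91, 5.85 and 6.97 in tCNT and 6.40, 6.05 and 6.30 in Ctrl.

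Among the 9 resistin-like, chitinase-like and alternatively activated macrophage genes, Retnla alone rose. It encodes a resistin-like protein made by macrophages and airway cells in type 2 inflammation. Retnla had 16.66, 16.93 and 16.30 in tCNT, against 13.92, 13.78 and 13.47 in Ctrl, and changed by 2.92 ± 0.42 (adjusted p = 0.00243). The groups were separated by several times the range within either of them. Its relatives did not pass: Retnlb differed by 0.66 (adjusted p = 0.563) and Retnlg by -0.10 (adjusted p = 0.987). The chitinase-like Chil3 had 16.27, 17.18 and 16.16 in tCNT and 15.72, 15.60 and 15.84 in Ctrl, a difference of 0.86 ± 0.39 (adjusted p = 0.504). Arg1, the arginase of alternatively activated macrophages, differed by 0.55 (adjusted p = 0.829). The list median was 0.66, and 7 of the 9 genes were separated upward, where 8.94% of all genes were.

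Of the chemokines for monocytes and neutrophils 1 rose. All 16 measured had a positive difference, where 50.2% of all genes did, and the median was 0.87. Of the 16, 14 were separated upward, where 8.94% of all genes were. Ccl8, which attracts monocytes and T cells, had 9.75, 10.01 and 9.51 in tCNT, against 7.68, 7.64 and 8.21 in Ctrl, and rose by 1.98 ± 0.45 (adjusted p = 0.0475). Next came the neutrophil chemokine Cxcl1, with 7.51, 8.14 and 7.34 in tCNT and 6.46, 6.54 and 6.37 in Ctrl (1.30 ± 0.31, adjusted p = 0.0578). Ccl2, the main monocyte chemokine, had 8.55, 8.04 and 8.84 in tCNT and 6.88, 7.48 and 7.53 in Ctrl (1.31, adjusted p = 0.136). Of 16 inflammasome and cytokine genes 0 passed, with a median of 0.13. Of these, 7 were separated upward and 1 downward, where 8.94% and 7.45% of all genes were.

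None of the listed markers of blood cells that these chemokines attract passed, among those measured, where 0.708% of all genes did. Epx, Mcpt8, Tpsab1, Ms4a2 and Fcer1a of the eosinophil, mast cell and basophil list were too low in signal to be kept. Ly6g of the neutrophil list and Ly6c2 of the monocyte list had no named spot. Of 12 neutrophil genes 0 passed (median -0.13), as did 0 of 9 for eosinophils, mast cells and basophils (median -0.03), 0 of 12 for T cells (median 0.19) and 0 of 13 for recruited monocytes and macrophages (median 0.31). In the last list 8 genes were separated upward and 0 downward, where 8.94% and 7.45% of all genes were. For T cells 5 were separated upward and 0 downward. For eosinophils, mast cells and basophils it was 3 and 2, and for neutrophils 2 and 1. Mmp12, the macrophage elastase, had 6.96, 7.14 and 7.51 in tCNT and 5.85, 5.56 and 5.89 in Ctrl (1.29 ± 0.45, adjusted p = 0.29), with Ctrl about the 40th percentile. Ccr2, the receptor for Ccl2 on monocytes, had 9.22, 9.37 and 9.32 in tCNT, against 8.58, 7.71 and 8.77 in Ctrl (0.78, adjusted p = 0.507). For resident alveolar macrophages 0 of 13 passed and the median was 0.03, and Siglecf, their surface marker, was at 9.80, 10.06 and 10.06 in tCNT and 9.74, 10.05 and 10.14 in Ctrl.

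In the lists of particle handling by macrophages Ctsk alone was called. Of 18 lysosome genes 1 rose, where 0.684% of all genes did, and the median was 0.20. Of the 18, 7 were separated upward and 0 downward, where 8.94% and 7.45% of all genes were. Ctsk, the lysosomal protease cathepsin K, had 12.73, 13.13 and 12.19 in tCNT, against 10.63, 11.19 and 11.05 in Ctrl, and rose by 1.65 ± 0.29 (adjusted p = 0.015). Its nearest tCNT sample, tCNT 9, was still well above the highest Ctrl sample. Gpnmb, a glycoprotein of lipid-laden macrophages, had 9.18, 10.49 and 9.50 in tCNT and 8.35, 8.56 and 8.23 in Ctrl (1.18, adjusted p = 0.453), with tCNT 8 highest. Of 11 scavenger receptors 0 passed, although 5 were separated upward and 0 downward. Among the 5 were Trem2, a lipid receptor of macrophages (1.24, adjusted p = 0.319), and Clec7a, the beta-glucan receptor (1.18, adjusted p = 0.229). Cd14, the co-receptor for bacterial lipopolysaccharide on monocytes and macrophages, is in no list and rose by 0.76 ± 0.17 (adjusted p = 0.0357).

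Cell division genes formed the largest group of called list members. Of 28 measured mitosis genes 7 rose, 24 were separated upward (8.94% of all genes were) and the median was 1.15. Cdk1, the kinase that starts mitosis, had 7.98, 8.39 and 7.92 in tCNT, against 6.49, 6.80 and 6.62 in Ctrl, and rose by 1.45 ± 0.29 (adjusted p = 0.0225). Cdc20, which activates the anaphase-promoting complex, had 10.61, 10.97 and 10.69 in tCNT and 9.11, 9.46 and 9.36 in Ctrl (1.42 ± 0.30, adjusted p = 0.032). The other 5 were the mitotic cyclin Ccnb2 (1.23), the spindle kinase Aurka (1.20), the kinesins Cenpe (1.33) and Kif20a (1.51), and Cdca8 of the chromosomal passenger complex (1.34), with adjusted p from 0.0203 (Cdca8) to 0.0491 (Aurka). Mki67, the common marker of cycling cells, had 10.42, 10.93 and 10.71 in tCNT, against 9.27, 9.36 and 9.87 in Ctrl, separated but uncalled (1.29 ± 0.34, adjusted p = 0.0873). tCNT 8 was the highest tCNT sample in 21 of the 28 genes and Ctrl 1 the lowest Ctrl sample in 23. Averaged over the list, the samples stood 0.78, 1.13 and 0.96 above the Ctrl mean in tCNT 7, 8 and 9, against -0.16, 0.02 and 0.14 in Ctrl 1, 2 and 3.

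Genes of DNA replication followed at smaller size. Of 25 measured 2 rose, all 25 had a positive difference (50.2% of all genes did) and the median was 0.46. Tk1, thymidine kinase, had 9.86, 9.74 and 9.53 in tCNT, against 8.69, 8.80 and 8.74 in Ctrl (0.95 ± 0.22, adjusted p = 0.0475). Mcm10, which acts at replication origins, had 7.88, 8.26 and 7.77 in tCNT and 7.08, 6.98 and 7.43 in Ctrl (0.86 ± 0.20, adjusted p = 0.0486). Pcna, the sliding clamp, differed by 0.44 (adjusted p = 0.367) and Mcm2 of the replicative helicase by 0.40 (adjusted p = 0.388). Called cell cycle genes from no list included Ect2, which sets the cleavage plane (1.57), Spc25 of the kinetochore (1.44), the repressor E2f7 (1.12), the centrosome kinase Nek2 (1.11), the cohesin regulator Cdca5 (1.20) and the polymerase subunit Pole (0.98). Ccna1, the cyclin of meiosis, had 8.18, 9.07 and 8.38 in tCNT, against 6.70, 6.69 and 7.21 in Ctrl, and rose by 1.77 ± 0.31 (adjusted p = 0.0136).

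Promoters of 4 of these mitosis genes are shown because the genes rose together and many mitotic promoters carry the same pair of short elements. Each is the 250 bases before the gene's start in RefSeq (GRCm38.p6), written on the gene's strand. Capitals mark CCAAT and TTTGAA (the cell cycle homology region, CHR), found on either strand, where ATTGG is CCAAT and TTCAAA is TTTGAA on the opposite one.
Cdk1: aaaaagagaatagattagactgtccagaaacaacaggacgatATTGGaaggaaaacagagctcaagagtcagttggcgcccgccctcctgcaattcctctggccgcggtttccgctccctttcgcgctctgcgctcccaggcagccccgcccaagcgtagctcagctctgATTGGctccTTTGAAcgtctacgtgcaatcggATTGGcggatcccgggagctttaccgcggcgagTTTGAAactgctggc
Ccnb2: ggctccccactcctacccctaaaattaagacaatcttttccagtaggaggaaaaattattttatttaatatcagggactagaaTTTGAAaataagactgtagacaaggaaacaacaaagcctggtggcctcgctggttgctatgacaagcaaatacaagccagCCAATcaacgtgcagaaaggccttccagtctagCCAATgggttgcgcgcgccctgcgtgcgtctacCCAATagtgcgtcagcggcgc
Cdc20: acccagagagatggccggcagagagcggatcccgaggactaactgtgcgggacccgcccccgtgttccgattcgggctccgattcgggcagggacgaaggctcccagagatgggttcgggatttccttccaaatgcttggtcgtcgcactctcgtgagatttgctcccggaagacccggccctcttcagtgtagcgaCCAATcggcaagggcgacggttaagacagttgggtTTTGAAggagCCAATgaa
Aurka: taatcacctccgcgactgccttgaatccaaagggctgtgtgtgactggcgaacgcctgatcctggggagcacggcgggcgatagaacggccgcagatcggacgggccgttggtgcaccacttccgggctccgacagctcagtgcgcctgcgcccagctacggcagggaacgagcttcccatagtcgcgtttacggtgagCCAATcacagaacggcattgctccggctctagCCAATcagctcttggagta
Cdk1 lies at chr10:69352913-69353162 (minus strand), Ccnb2 at chr9:70421555-70421804 (minus), Cdc20 at chr4:118437344-118437593 (minus) and Aurka at chr2:172370571-172370820 (minus). CCAAT occurred 3 times in the Cdk1 and Ccnb2 promoters and 2 times in those of Cdc20 and Aurka. In Cdc20 a TTTGAA began 18 bases before the start, in Cdk1 they began 71 and 15 bases before it, in Ccnb2 167 bases before it, and the Aurka window held none. The mitosis list had 24 promoters in the table for 23 of its genes. Of these 79.2% held CCAAT and 37.5% held TTTGAA, against 33.9% and 16% of all 32841 promoters of that length. Over the 105 promoters of the raised genes, which the table held for 90 of 113, the shares were 41% and 16.2%. A match describes the sequence and is not evidence of binding.

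Some genes that build multiciliated cells rose as well. Of 10 measured genes of multiciliated cell formation 3 rose, where 0.684% of all genes did, and the median was 0.44. Of the 10, 6 were separated upward and 0 downward, where 8.94% and 7.45% of all genes were. Deup1, the scaffold on which these cells make centrioles in bulk, had 10.82, 11.24 and 10.96 in tCNT, against 9.31, 9.46 and 9.57 in Ctrl. Both groups were tight and clearly apart, and the change of 1.55 ± 0.22 had an adjusted p of 0.00232, the smallest that any gene reached, shared with Cxcl17, Foxn4, AU040972 and E230025N22Rik. Ccno, a cyclin of centriole amplification, had 10.77, 10.68 and 10.81 in tCNT and 9.44, 9.57 and 9.46 in Ctrl (1.24 ± 0.21, adjusted p = 0.00842). The transcription factor Myb, active early in multiciliogenesis, had 10.02, 10.46 and 10.18 in tCNT, against 9.47, 9.44 and 9.35 in Ctrl (0.79 ± 0.15, adjusted p = 0.0178). Foxj1, the master regulator of motile cilia, had 10.73, 11.05 and 10.74 in tCNT and 10.56, 10.18 and 10.11 in Ctrl and did not pass (0.53, adjusted p = 0.336). Gmnc, which starts the program upstream of Myb and Ccno, differed by 0.42 (adjusted p = 0.562). Called transcription factor genes outside the lists were Foxn4, which acts in multiciliated cells of the frog Xenopus (1.44 ± 0.20, adjusted p = 0.00232), and Lhx3, known from pituitary and motor neurons (1.46 ± 0.21, adjusted p = 0.00243).

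Some structural genes of the motile cilium passed too. Of 20 measured 2 rose, where 0.684% of all genes did, and the median was 0.48. In this list 14 were separated upward and 1 downward, where 8.94% and 7.45% of all genes were. Rsph1, a radial spoke protein, had 11.18, 11.49 and 11.27 in tCNT, against 10.70, 10.73 and 10.09 in Ctrl (0.80 ± 0.17, adjusted p = 0.0357). Tekt1, a filament inside the axoneme's microtubules, had 11.13, 11.72 and 11.17 in tCNT and 10.72, 10.56 and 10.77 in Ctrl (0.66 ± 0.14, adjusted p = 0.0357). Both were separated, with tCNT 8 highest, as it was in 13 of the 20 genes. Rsph9, another radial spoke protein (0.57, adjusted p = 0.0521), and the dynein chain Dnaic2 (0.51, adjusted p = 0.0906) came close, while Tppp3, a tubulin-binding protein, differed by -0.34 (adjusted p = 0.536). Called genes from no list that act in motile cilia were Lrrc23 of the radial spokes (1.24), Ropn1l of the same structure (1.02), the dynein arm factors Ccdc103 (1.00), Ccdc151 (0.82) and Armc4 (0.74), Drc3 of the nexin-dynein complex (0.70), and Cfap206, Cfap52, Cfap53 and Cfap298 (0.76, 0.68, 0.62 and 0.39). These were picked from the called genes after their values were seen. Cfap298, with 12.28, 12.63 and 12.47 in tCNT and 12.13, 12.08 and 12.06 in Ctrl, had the smallest change of the 117.

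The promoters of Tekt1 and Deup1 are shown with the RFX half-site GTTGCC in capitals, an element of many cilium gene promoters. Read on the opposite strand it is GGCAAC. The table has 2 starts for each gene, and the first listed is given, again as the 250 bases before the start.
Tekt1: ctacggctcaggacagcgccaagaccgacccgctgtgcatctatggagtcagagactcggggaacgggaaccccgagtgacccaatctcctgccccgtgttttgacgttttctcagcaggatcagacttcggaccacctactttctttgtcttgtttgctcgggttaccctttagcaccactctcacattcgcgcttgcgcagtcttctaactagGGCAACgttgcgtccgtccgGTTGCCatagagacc
Deup1: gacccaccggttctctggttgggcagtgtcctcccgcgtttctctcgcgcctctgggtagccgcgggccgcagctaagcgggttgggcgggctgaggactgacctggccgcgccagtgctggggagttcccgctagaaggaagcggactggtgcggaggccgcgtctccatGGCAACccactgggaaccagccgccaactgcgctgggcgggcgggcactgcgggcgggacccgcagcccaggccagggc
Tekt1 lies at chr11:72361883-72362132 (minus strand) and Deup1 at chr9:15627847-15628096 (minus). The half-site began 35 and 15 bases before the Tekt1 start and 79 bases before that of Deup1. It occurred in 27.3% of 22 promoters of 17 motile cilium genes and in 18.1% of those of the raised genes, against 10.4% of all promoters.

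**Figure D3:**
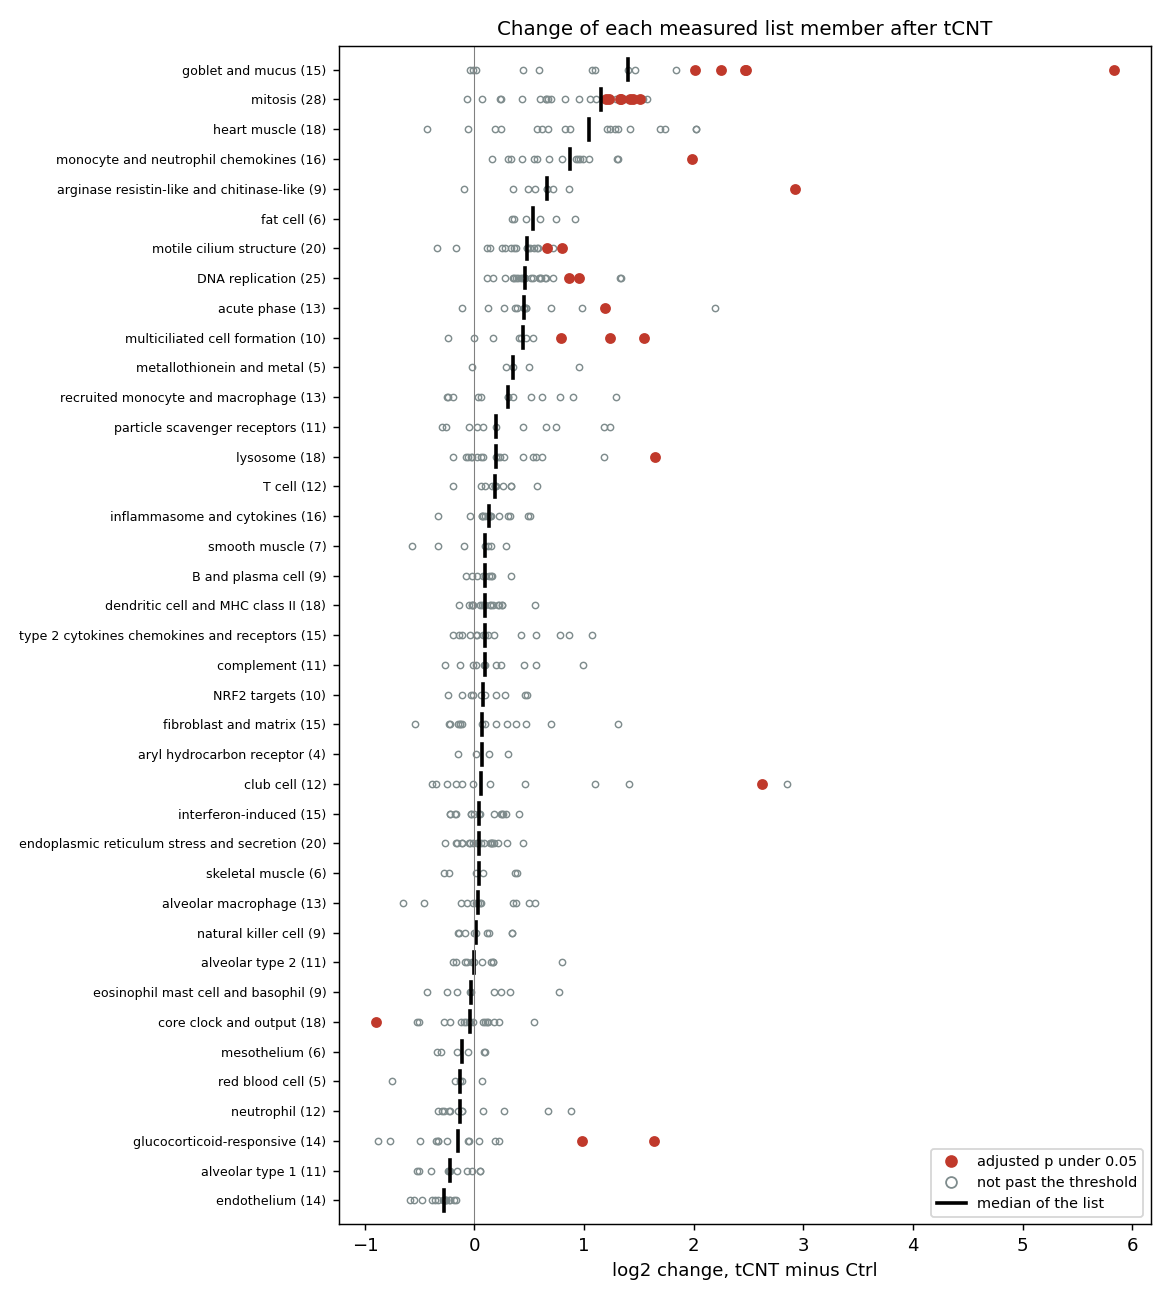
Log2 change of tCNT minus Ctrl (horizontal axis) for every measured member of each gene list (rows, with the number measured), ordered by the list median (black bar); red points have an adjusted p under 0.05. Called members lie in the goblet, mitosis, cilium, replication and glucocorticoid lists and singly in others, and Clca1 stands alone at 5.83.

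Structural cell types of the alveoli showed no called gene, where 0.708% of all genes were called. Alveolar type 2 genes had a median of 0.00 with 0 of 11 called. Sftpc of that list stood at the highest value an array holds in every tCNT sample, where a rise may not be detectable. Alveolar type 1 genes had a median of -0.22 with 0 of 11 called. Of the 11, 9 had a negative difference and 3 were separated downward, where 7.45% of all genes were. Ager, their receptor marker, had 14.37, 14.16 and 13.49 in tCNT, against 14.54, 14.50 and 14.47 in Ctrl (-0.52, adjusted p = 0.473). All 14 endothelial genes had a negative difference, with a median of -0.28 and none called, where 50.2% of all genes had a positive difference. Pecam1, the endothelial adhesion molecule, had 10.91, 10.85 and 10.53 in tCNT and 11.39, 11.31 and 11.07 in Ctrl (-0.55, adjusted p = 0.518). Of the 14 endothelial genes, 4 were separated downward, where 7.45% of all genes were. Of 15 fibroblast and matrix genes 0 passed (median 0.07). Interferon-induced genes (0 of 15, median 0.04) and targets of the oxidant sensor NRF2 (0 of 10, median 0.08) stayed near Ctrl.

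Acute phase genes were mostly above Ctrl. Of 13 measured 1 rose, 11 were separated upward (8.94% of all genes were) and the median was 0.45. Fgg, the fibrinogen gamma chain, had 7.43, 7.86 and 7.90 in tCNT, against 6.48, 6.54 and 7.11 in Ctrl, and rose by 1.19 ± 0.22 (adjusted p = 0.0176). Saa3, the serum amyloid A of inflamed tissue, had 10.28, 10.38 and 10.63 in tCNT and 7.94, 7.99 and 8.30 in Ctrl. Although its groups were far apart, its difference of 2.19 ± 0.60 did not pass (adjusted p = 0.111) in the fit, which estimates the spread over all 24 samples. Fgl1, a fibrinogen-like liver protein (1.25), and the kininogen Kng1 (0.85) were called from no list.

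Genes of the glucocorticoid-responsive list differed in both directions, and the 2 called rose. Per1, which hormones also induce, was listed with the clock genes instead and fell. Of the 14 measured in the list 2 rose, 0 fell, 6 were separated downward (7.45% of all genes were) and the median was -0.15. Zbtb16, a zinc finger transcription factor, had 12.30, 12.40 and 12.32 in tCNT, against 11.34, 10.85 and 10.64 in Ctrl, and rose by 1.64 ± 0.32 (adjusted p = 0.0203). Fkbp5, the co-chaperone of the glucocorticoid receptor, had 10.55, 10.84 and 10.84 in tCNT and 9.90, 9.90 and 9.49 in Ctrl (0.98 ± 0.16, adjusted p = 0.00842). Both were separated with no sample near the other group. Lower in every tCNT sample were Cebpd, a transcription factor of the acute response (-0.88, adjusted p = 0.0918), the feedback inhibitor Errfi1 (-0.77, adjusted p = 0.0733) and Tsc22d3, the leucine zipper GILZ (-0.35, adjusted p = 0.616), and none of them passed.

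The 4 genes that fell were Per1, Acer2, Upk1a and Cyp2d12. Per1, a repressor of the circadian clock that light and hormones also induce, had 12.68, 12.20 and 12.47 in tCNT, against 13.27, 13.39 and 13.01 in Ctrl, and fell by 0.90 on the log2 scale (SE 0.16, adjusted p = 0.015). Of the 18 clock and clock output genes it was the one called, and the list median was -0.04. Per2 overlapped between groups, with 8.22, 8.57 and 9.20 in tCNT and 8.58, 8.57 and 8.47 in Ctrl, and Dbp, an output of the clock, was at -0.05. Acer2, an alkaline ceramidase, had 9.13, 9.39 and 8.56 in tCNT and 10.13, 9.81 and 10.22 in Ctrl (-0.94 ± 0.21, adjusted p = 0.0404). The uroplakin Upk1a fell by 0.66 and the cytochrome Cyp2d12 by 0.61. The Per1 promoter, the 250 bases before the first of its 2 starts in the table (chr11:69098699-69098948, plus strand, GRCm38.p6), is shown with the E-box CACGTG, the element that clock activators bind, in capitals.
Per1: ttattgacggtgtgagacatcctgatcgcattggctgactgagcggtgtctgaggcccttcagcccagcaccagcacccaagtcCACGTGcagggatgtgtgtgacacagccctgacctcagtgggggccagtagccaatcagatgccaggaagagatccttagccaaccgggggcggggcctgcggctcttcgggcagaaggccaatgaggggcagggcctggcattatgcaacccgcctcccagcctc
The E-box began 166 bases before the start, and 6.02% of all promoters of that length held one.

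Heart muscle genes were uneven among the Ctrl samples. Of 18 measured 0 passed, although 12 were separated upward (8.94% of all genes were) and the median was 1.04. Myh6, the atrial and adult mouse heart myosin, had 13.31, 13.30 and 13.71 in tCNT, against 12.78, 10.37 and 12.54 in Ctrl, and Myl7, the atrial light chain, had 9.58, 9.56 and 10.01, against 9.03, 6.66 and 8.97. Ctrl 2 lay far below the other Ctrl samples in both, and it was the lowest Ctrl sample in 14 of the 18 genes. The mean of the list was 0.72, 0.71 and 1.11 in the tCNT samples and 0.48, -0.65 and 0.16 in the Ctrl samples, relative to the Ctrl mean. Without Ctrl 2 the list median was 0.68. Tnni3k, a kinase of heart muscle that is in no list, had 7.34, 6.72 and 7.07 in tCNT, against 6.48, 6.33 and 5.97 in Ctrl, and rose by 0.73 ± 0.15 (adjusted p = 0.0322). The part of heart tissue in the results was not tested. Fat cell genes, a further tissue that can adhere to lung, had a median of 0.53 with 0 of 6 called, a list mean of 0.43, 0.22 and 1.07 in the tCNT samples and 0.85, -0.39 and -0.46 in the Ctrl samples.

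**Figure D4:**
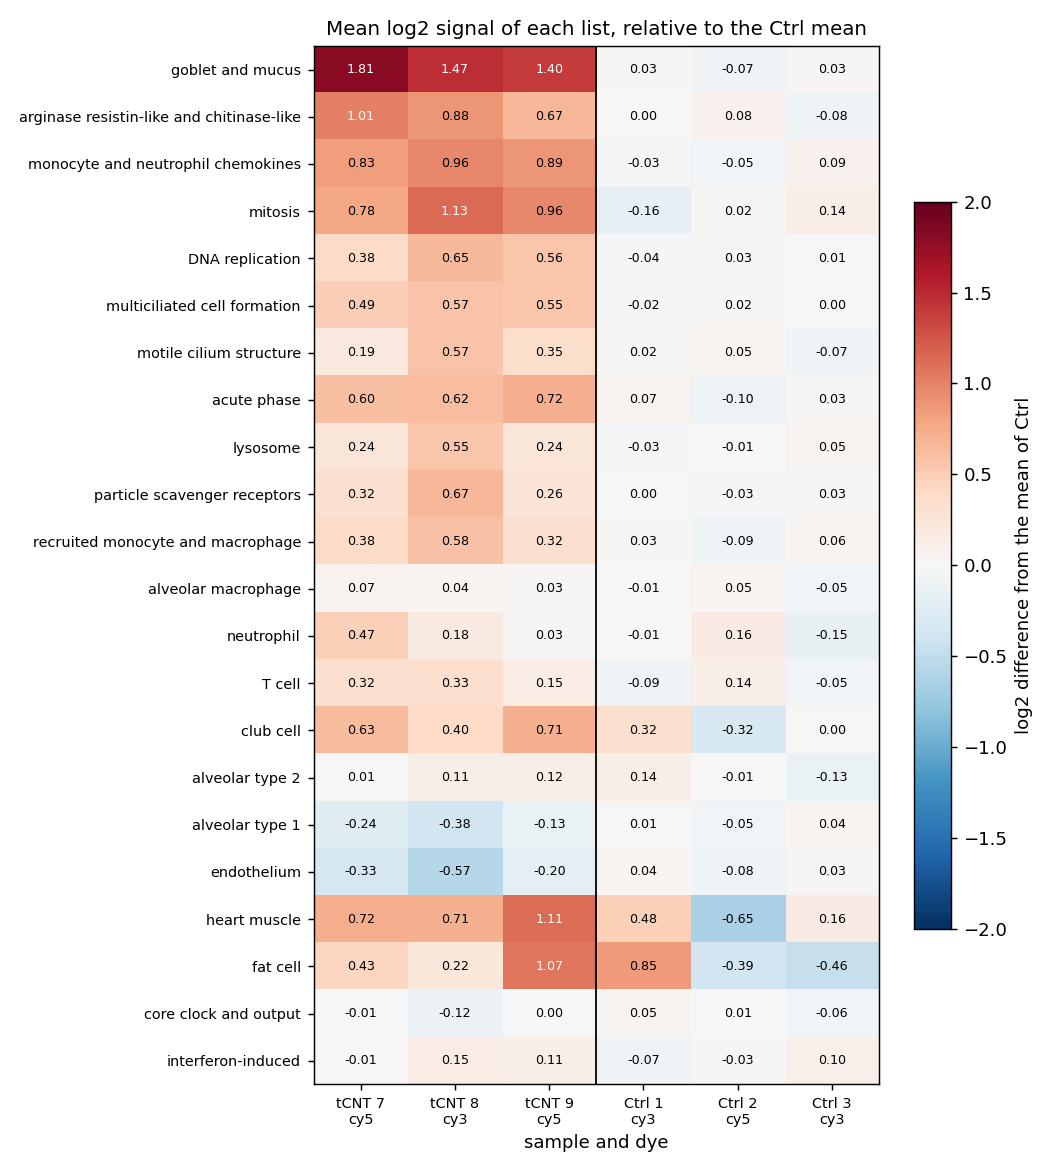
Mean log2 signal of each gene list (rows) in each tCNT and Ctrl sample (columns, with dye), relative to the mean of the Ctrl samples; red is higher and blue lower. The goblet list stands at 1.81, 1.47 and 1.40 in tCNT 7, 8 and 9, and the heart list at -0.65 in Ctrl 2.

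Set against rCNT directly, tCNT lungs differed in 1461 genes (8.84%), 518 higher (3.14%) and 943 lower (5.71%). The count was 463 without tCNT 7 and 876 without tCNT 9. Monocyte and neutrophil chemokines were lower after tCNT in 15 of 16, interferon-induced genes in 13 of 15, mitosis genes in 20 of 28 and goblet genes in 6 of 15, with none higher in these lists. Ccl24 had the largest difference (-5.58 ± 0.48, adjusted p = 2.13e-06), with 7.91, 5.85 and 6.97 in tCNT and 12.03, 13.01 and 13.35 in rCNT. Arg1 had 8.05, 7.33 and 7.57 in tCNT, against 11.14, 12.13 and 12.40 in rCNT. Il4 had 6.46, 6.28 and 6.30 in tCNT and 6.89, 8.67 and 8.61 in rCNT (-1.80 ± 0.32, adjusted p = 0.00174). Il13, below the 40th percentile after tCNT, had 5.76, 7.82 and 7.52 in rCNT, and the size of its difference is not given. Of the goblet genes, Slc26a4 and Agr2 were lower after tCNT than after rCNT (-3.10 ± 0.43 and -2.22 ± 0.35, adjusted p = 0.000218 and 0.000569), whereas Clca1 (-1.13 ± 1.08, adjusted p = 0.578), Muc5b (-0.50, adjusted p = 0.466) and Tff2 (-0.20, adjusted p = 0.831) did not pass. For Clca1 the values were 14.21, 12.31 and 12.53 in tCNT and 11.34, 15.63 and 15.01 in rCNT, where rCNT 4 lay below every tCNT sample, and without it the difference was -2.46 (adjusted p = 0.179). Muc5ac was lower by 1.96 (adjusted p = 0.00531).

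None of the cilium genes passed in that comparison. Of 20 motile cilium genes 0 differed between tCNT and rCNT (median 0.06), and of 10 genes of multiciliated cell formation 0 (median -0.23). Deup1 had 10.82, 11.24 and 10.96 in tCNT and 10.97, 11.39 and 11.42 in rCNT, a difference of -0.15 ± 0.21 (adjusted p = 0.723), and Rsph1 differed by 0.02 ± 0.17 (adjusted p = 0.962). Standard errors of this size leave small differences between tCNT and rCNT unresolved. Higher after tCNT than after rCNT was Zbtb16, with 12.30, 12.40 and 12.32 in tCNT against 11.75, 11.25 and 10.30 in rCNT (1.27 ± 0.31, adjusted p = 0.0149). Fabp1, a lipid carrier listed among alveolar macrophage genes, was higher by 1.56 ± 0.26 (adjusted p = 0.00106). The highest differences were those of Selenbp1 and Txnip (2.25 and 2.05, adjusted p = 0.0157 and 0.0275). Txnip, which binds thioredoxin, had 13.73, 13.70 and 13.98 in tCNT and 9.60, 13.20 and 12.13 in rCNT, with the lowest value in rCNT 4. Without rCNT 4 Txnip differed by 1.39 (adjusted p = 0.149) and Selenbp1, a selenium-binding protein, by 1.75 (adjusted p = 0.08).

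Against BayTubes, tCNT lungs differed in 15 genes (0.0908%), 8 higher (0.0484%) and 7 lower (0.0424%), and 5 of these belong to the clock list of 18. Arntl, the clock activator BMAL1, had 9.03, 8.69 and 9.14 in tCNT, against 7.31, 6.99, 7.36 and 7.65 in BayTubes (1.67 ± 0.19, adjusted p = 0.000205). Per2 had 8.22, 8.57 and 9.20 in tCNT and 9.70, 10.04, 10.01 and 9.97 in BayTubes (-1.31 ± 0.20, adjusted p = 0.00697). Neither gene overlapped between these groups. Against Ctrl, which both comparisons share, 7 of the 18 clock genes were higher and 1 lower after BayTubes (3.18% of all genes called, 2.16% higher and 1.02% lower), beside 0 higher and 1 lower after tCNT. The hour of lung collection is not given in the sources used here, and its part in the clock gene values was not tested. Per1 (-0.94), Dbp (-1.02) and the output factor Hlf (-0.84) were lower too, with adjusted p of 0.00697, 0.0406 and 0.0297. Among the other 10 were Spon2, a matrix protein (1.45 ± 0.15, adjusted p = 0.000104), the tetraspanin Tspan4 (-0.91) and the mitosis-entry kinase Wee1 (-0.72). No other list held a called gene in this comparison, also where the values were far apart in single samples: Clca1 had 14.21, 12.31 and 12.53 in tCNT and 12.51, 10.29, 10.44 and 10.58 in BayTubes (2.61 ± 0.96, adjusted p = 0.916). Mitosis and motile cilium genes had medians of -0.07 and 0.11. The count of 15 was 2 without tCNT 8, 3 without tCNT 7, 5 without tCNT 9, 7, 6 and 4 without BayTubes 17, 18 and 19, and 16 without BayTubes 20.

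The comparisons of tCNT, rCNT and BayTubes with vehicle share the Ctrl samples, so their values are given side by side only. The mitosis list had a median of 1.15 after tCNT, 2.18 after rCNT and 1.19 after BayTubes. For the chemokine list the medians were 0.87, 3.31 and 1.11 in that order, for the goblet list 1.40, 2.45 and 0.63, and for the motile cilium list 0.48, 0.32 and 0.38. Interferon-induced genes had 0.04, 1.33 and -0.08. The median after rCNT was the highest in each of these lists but the cilium list, where that after tCNT was. The samples overlapped there. The mean of the cilium list, relative to the Ctrl mean, was 0.19, 0.57 and 0.35 in tCNT 7, 8 and 9. It was 0.23, 0.27 and 0.20 in rCNT 4, 5 and 6, and 0.34, 0.39, 0.21 and 0.16 in BayTubes 17, 18, 19 and 20.

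**Figure D5:**
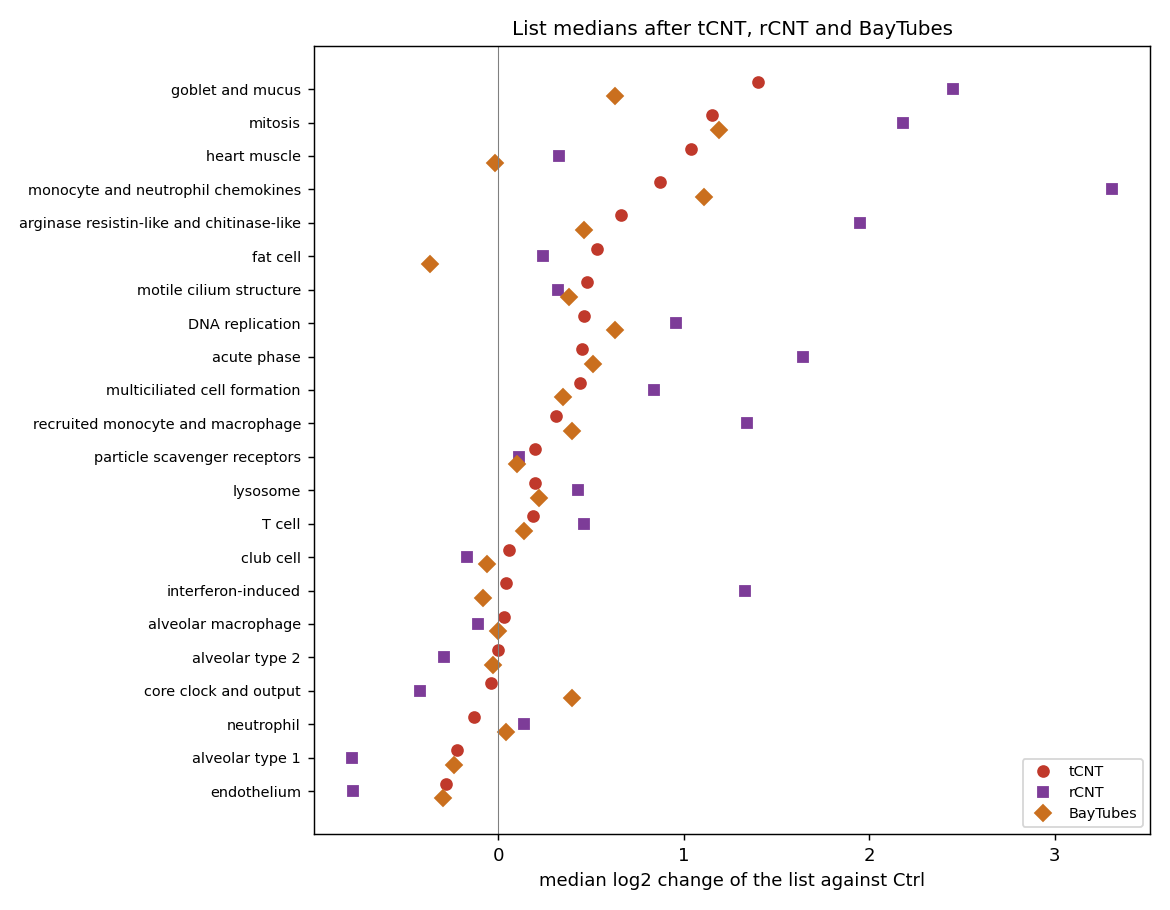
Median log2 change against Ctrl (horizontal axis) of each gene list (rows) after tCNT (circles), rCNT (squares) and BayTubes (diamonds), which share the same Ctrl samples. The chemokine medians are 0.87, 3.31 and 1.11 and the motile cilium medians 0.48, 0.32 and 0.38 in that order.

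Against the mean of the other 5 materials, 0 genes passed in the limma fit, with 666 at an unadjusted p under 0.05, and the median standard error was 0.116. Without Graphite 15 the count was 10, Tnni3k among them. The 5 genes with the smallest p were Tnni3k (0.66, adjusted p = 0.165), the interferon-induced Ifit3b (-0.56, adjusted p = 0.169), and the chloride transporter Slc26a9 (0.32), Tspan4 (-0.52) and Arntl (0.77), each with an adjusted p of 0.285. Tnni3k had 7.34, 6.72 and 7.07 in tCNT and lay at or below 6.63 in every sample of the other 5 materials, with Graphite 13 (6.63) and Graphite 15 (6.61) the highest of them. The heart muscle list mean was 0.76 above the Ctrl mean in Graphite 15, beside 0.72, 0.71 and 1.11 in tCNT.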

How the data were processed

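Lung RNA of 24 pooled samples was hybridised to 12 two-colour Agilent arrays on 3 slides, 1 sample per dye, and what the authors deposited is a log2 signal for each spot, extracted and normalised by them. The submitters' processing notes name Agilent Feature Extraction and limma, with no versions; the background correction and the normalisation are not given in the sources used here. Of 62976 spots, 31465 carried 1 gene name and the brightest stood for each gene; 31511 had none. Genes above each sample's 40th percentile in at least 3 samples were kept (16519 of 20738). limma 3.58.1 (R 4.3.3, statmod 1.5.0) fitted group and dye over all 24 samples with array as a random block (correlation 0.399); p-values are 2-sided, Benjamini-Hochberg adjusted over all kept genes, called under 0.05. On data simulated from the fitted model, 74% of 2-fold and 48% of 1.5-fold changes were found between tCNT and Ctrl, with 4.27% of calls false. Those data had the same array correlation for every gene, equal spread in all samples and no dye effect. They therefore do not measure the share of false calls among the genes called here. The members and 39 gene lists were chosen with earlier results of these data known; beyond list members, genes were named if called or among the 10 largest differences in a comparison, or, against the 5 other materials, the 5 smallest p. Alternatives changed the dye, array and slide terms, samples, filter, centring, spot summary, prior and thresholds.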

Additional observations from a re-analysis of the deposited data

Results flagged for a closer look

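Outside the named genes, 5 of 16650 kept spots without a gene name passed the same threshold in tCNT against Ctrl, all of them higher after tCNT. They were not analysed further.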

How the results depend on the processing

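All 117 genes called in tCNT against Ctrl kept their direction in every fit that held them (115 under the stricter filter), and the counts varied. Because all 117 were separated between the groups, leaving out a sample could hardly turn their direction. For tCNT against Ctrl the count was 214 at an adjusted p under 0.1, 0 with array as a fixed term (1048 at an unadjusted p under 0.05), 51 with only the groups compared, 0 within slide 1 (798 unadjusted; 1 Ctrl sample there, assumed to vary like the other groups), and 0 to 327 when single samples were left out. With slide as a fixed term 99 of the 117 remained. For tCNT against rCNT it was 2301 at 0.1, 868 at a change of at least 1.5-fold, 12 with array fixed, 55 with only the groups compared, 3279 within slide 1 (there rCNT 4 alone, the sample with the largest residual SD, 0.606, assumed to vary like the other groups), and 463 to 2153 when single samples were left out. For tCNT against BayTubes it was 4 without the array block, 2 with array fixed, 1 with only the groups compared, 0 within slide 1 (1090 unadjusted), and 2 to 16 when single samples were left out. Against the mean of the other 5 materials it was 0 to 10. The cause of these differences was not tested. Over all comparisons and settings, 62 counts were scored as within 1.5 times the reported ones. These include counts of 0 set against a reported 0, where such a ratio has no meaning. None of the 117 genes turned its direction, nor did the called genes named in the text against rCNT (10) and BayTubes (8). The direction of other genes called in those 2 comparisons was not followed. Of the 39 list medians 16 turned their sign under some setting, each of them within 0.13 of 0 as reported. No paired analysis was possible because the replicate numbers in the labels run through the series and no 2 groups share one. Signals near the 40th percentile, as for the interleukins, limit what small changes can be seen.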

Other observations

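Several of the 113 raised genes belong to none of the lists, and those described here were picked after their values were seen. AA467197 had the largest change among those not yet described, with 9.73, 9.24 and 8.86 in tCNT 7, 8 and 9, against 7.47, 7.06 and 7.30 in Ctrl 1, 2 and 3 (1.89 ± 0.38, adjusted p = 0.0259). Fxyd4, a regulator of the sodium pump, had 8.03, 8.85 and 8.03 in tCNT and 6.73, 6.76 and 6.72 in Ctrl (1.63 ± 0.32, adjusted p = 0.0209). The groups did not overlap in either gene, and tCNT 7 was highest in the first and tCNT 8 in the second. Ybx2, an RNA-binding protein of male germ cells, rose by 1.21 ± 0.18 (adjusted p = 0.00243), with 8.71, 8.89 and 8.50 in tCNT, against 7.42, 7.72 and 7.60 in Ctrl. Morn5 (1.32), Meig1 (0.99), Mns1 (0.62) and Nme5 (0.69) rose too, and in each tCNT 8 was the highest sample. Crocc2, a relative of the rootletin that anchors cilia, rose by 1.29 and Nphp4, a protein of the ciliary transition zone, by 0.76. Also raised were the integrin of hemidesmosomes Itgb4 (0.59), the metalloreductase Steap1 (1.13) and the transporter Slco1a5 (1.15). Slco1a5 had 8.22, 8.46 and 9.02 in tCNT and 7.36, 7.59 and 7.46 in Ctrl, with tCNT 9 highest.

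The median change of the 11 scavenger receptors was 0.20. The lists not described in the comparisons had no called gene in tCNT against Ctrl. Median changes of the others were 0.10 for 9 B and plasma cell genes, 0.01 for 9 natural killer cell genes and 0.10 for 18 dendritic cell and MHC class II genes. For 11 complement genes the median was 0.10, for 20 genes of endoplasmic reticulum stress and secretion 0.04, for 5 metallothionein and metal genes 0.35 and for 4 targets of the aryl hydrocarbon receptor 0.07. Genes of skeletal muscle (6, median 0.04), smooth muscle (7, median 0.10), mesothelium (6, median -0.11) and red blood cells (5, median -0.13) lay near Ctrl as well.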
